A study of Mus musculus with 14 samples.

Results

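The WNT signalling genes of the fetal mouse ovary were compared between control and conditional Coup-tfII knockout embryos. Coup-tfII is the orphan nuclear receptor encoded by Nr2f2. The set held 46 genes, namely 9 WNT ligands, 2 R-spondins, 2 genes of ligand secretion, 12 receptors, 8 secreted inhibitors, 1 intracellular modulator, 5 genes of beta-catenin and its TCF/LEF partners and 7 feedback targets. Members were the probe sets (groups of short probes for a transcript) of the deposited value table whose single platform gene symbol was among the 46. This gave 99 of 45037 probe sets and 45 of 18193 genes. Tcf7 had no probe set under its own symbol, so its expression was not analysed here. Of the 45, 14 had 1 probe set and 31 had 2 or more, up to 6 for Fzd3. Each gene was represented by its brightest probe set, and 41 members passed a filter on low signal, of which 20 belonged to the canonical branch, 5 to the noncanonical branch and 16 to both. The other 4, Wnt2, Wnt7a, Dkk1 and Sfrp4, lay below the filter and were not tested.

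WNT proteins are secreted, lipid-modified ligands. In the canonical branch a ligand engages a Frizzled receptor together with Lrp5 or Lrp6, beta-catenin (Ctnnb1) escapes degradation, and with TCF/LEF factors it switches on genes that include the pathway's own brakes, such as Axin2, Nkd1, Notum, Rnf43 and Znrf3. In the noncanonical branch Wnt5a, Wnt5b and Wnt11 act through Frizzled and Ror receptors on cell shape, movement and polarity without beta-catenin. In the fetal ovary Rspo1 and Wnt4 are known for directing somatic cells to the ovarian fate through beta-catenin.

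Whole ovaries were profiled on 14 Affymetrix arrays, 3 control and 3 knockout at embryonic day E14.5 and 4 control and 4 knockout at E16.5. Knockout embryos carried the WT1-CreERT2 recombinase and floxed alleles of COUP-TFII (flox/flox), on a mixed background of C57BL/6, Swiss Webster and B6129SF1/J. In all 4 groups the dams received tamoxifen, 2 mg for each 10 g of body weight, on E11.5 and again on E12.5. Which genotype counted as "control", with or without Cre, and the number of embryos behind an array are not stated. Cre under WT1 control can delete the gene only in cells that expressed WT1 around the time of tamoxifen, so cells of the ovary not derived from them keep it. Replicates are called biological in the labels.

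The labels were checked on Nr2f2 itself. In E16.5 controls its brightest probe set read 3819, 4950, 4309 and 4250 (signal, linear scale, replicates 1 to 4), and in knockouts 2462, 2261, 3359 and 2053. All knockout arrays lay below all controls, with a log2 change of -0.79 ± 0.22 (SE) that did not pass (limma adjusted p = 0.0913 over all probe sets), while 2 other Nr2f2 probe sets fell, by 1.60 (adjusted p = 0.00299) and 2.57 (adjusted p = 0.0127) on the log2 scale. None of the Nr2f2 probe sets passed at E14.5, where its brightest read 217, 493 and 422 in controls and 155, 252 and 267 in knockouts. E16.5 knockout replicates 1 and 4 stood apart in the array's own controls. The bioB hybridization control averaged 10947 and 17637 there and 4105 to 5747 on the remaining arrays of that stage. The log2 difference of the 3' and 5' Gapdh control probe sets, a measure of RNA length and amplification, was 0.94 and 1.31 there. It was 1.63 and 1.57 on knockout replicates 2 and 3 and 1.67 to 1.82 on controls. In the Gapdh difference all E16.5 knockouts thus lay below all E16.5 controls, also with replicates 1 and 4 left out. Values without knockout replicates 1 and 4 are given beside the members that moved most with them. Of cell type markers, 8 of 8 pre-granulosa and 7 of 7 germ cell markers were above the filter, which 12406 of 18193 genes passed. All measured interstitial, surface epithelium, endothelial and macrophage markers passed it too, so these counts do not identify the tissue.

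At E16.5 the noncanonical ligand Wnt5a and the intracellular modulator Dact1 fell in the knockout ovaries, and no other member passed the threshold (an adjusted p of 0.05) when each gene was represented by its brightest probe set. Thus 0 of 41 members were higher and 2 were lower, where 1.42% of all 12406 genes tested were called, 0.967% higher and 0.451% lower. That background of 176 genes itself ranged from 43 to 494 with 1 E16.5 array left out, and was 16 without knockout replicates 1 and 4 and 19 with the Gapdh difference as a covariate. The direct feedback targets of beta-catenin gave 0 of 7, receptors 0 of 12 and secreted inhibitors 0 of 6. Of the 41 members, 21 had a positive and 20 a negative log2 change, with a median of 0.0073 against 0.053 over all genes tested, and 11 had an unadjusted p under 0.05 (18.3% of all genes did). In 6 members the knockout and control arrays did not overlap, 5 lower and 1 higher, against 10.4% of all genes (4.22% lower, 6.22% higher). With every probe set tested on its own, 6 member probe sets passed, 5 lower and 1 higher, from Wnt5a, Dact1, Fzd3 and Sfrp1, where 0.918% of all probe sets were called (0.381% lower, 0.537% higher). By branch, 1 of 5 noncanonical, 0 of 20 canonical and 1 of 16 shared members fell, with median log2 changes of -0.46, 0.04 and 0.029. Because whole ovaries were used, fewer cells of a type and less RNA per cell cannot be told apart in any of these values.

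**Figure D1:**
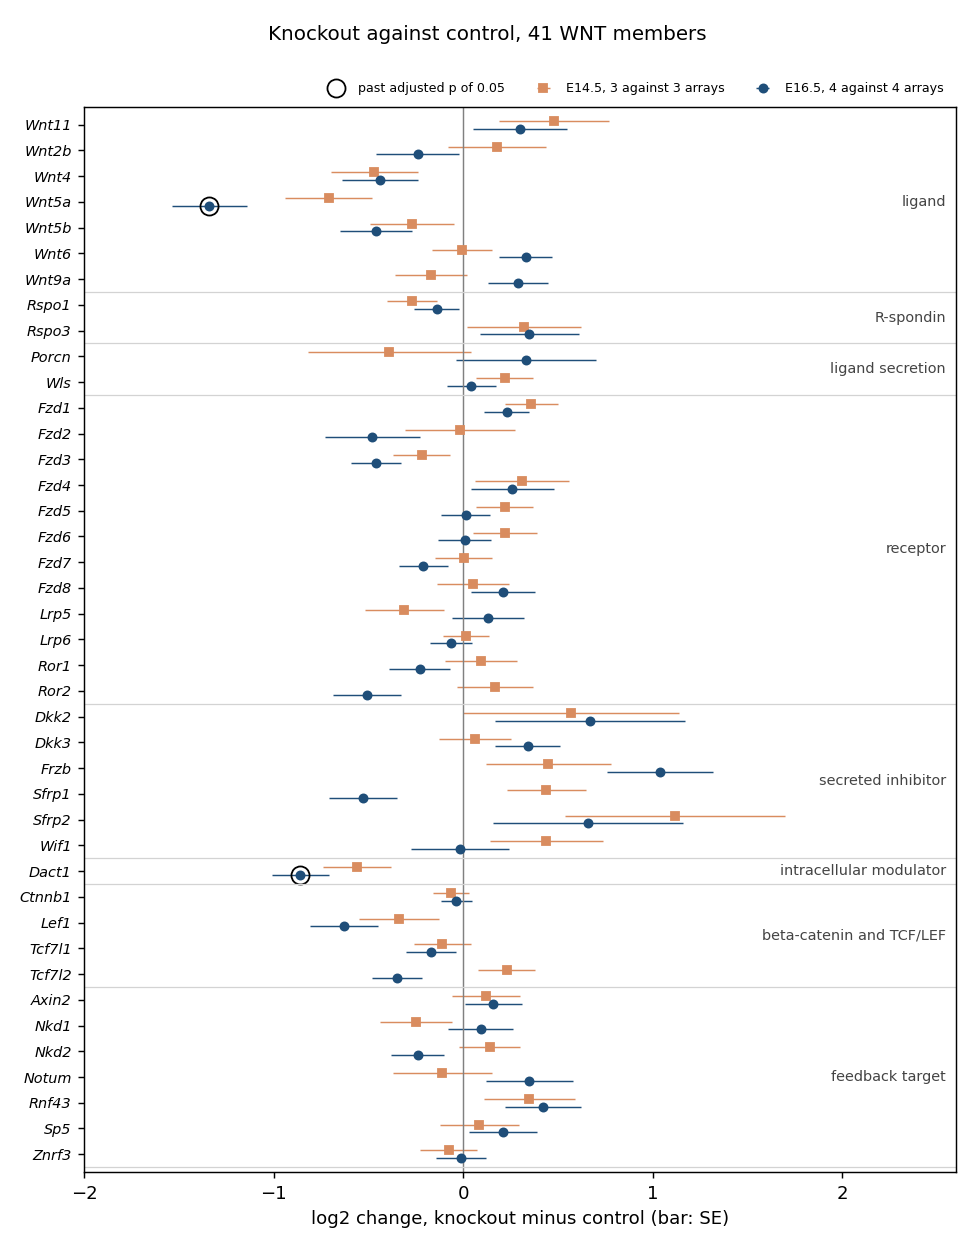
Log2 change, knockout minus control, of the 41 tested WNT members grouped by role. Squares are E14.5 (3 against 3 arrays) and circles E16.5 (4 against 4), bars are standard errors, and rings mark an adjusted p under 0.05. Wnt5a at -1.34 and Dact1 at -0.86, both at E16.5, carry rings, whereas the feedback targets lie between -0.24 and 0.42 at E16.5.

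Wnt5a, the main noncanonical WNT and a growth signal of mesenchyme, was measured by 4 probe sets. The brightest read 1355, 1730, 1454 and 1471 in E16.5 controls and 716, 454, 697 and 496 in knockouts. Every knockout array lay below every control array, with the lowest control at 1355 and the highest knockout at 716. The means were 1502 ± 160 and 591 ± 135 (SD, n = 4 each), and Wnt5a fell by 1.34 ± 0.20 on the log2(signal + 16) scale, a 2.54-fold decrease (95% interval -1.76 to -0.93, limma adjusted p = 0.00442).

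The other Wnt5a probe sets went the same way. One read 1716, 2181, 1883 and 1672 in controls and 828, 513, 794 and 721 in knockouts (log2 change -1.38 ± 0.20, adjusted p = 0.0049 over the 27022 probe sets tested). Another read 743, 714, 686 and 633 in controls and 274, 237, 322 and 224 in knockouts (log2 change -1.35 ± 0.18, adjusted p = 0.00299). In both, the groups were widely separated. The dimmest read 119, 155, 119 and 92.6 against 45.4, 30.7, 41.6 and 61.9, again without overlap, and its change of -1.18 ± 0.35 did not pass (adjusted p = 0.115). Without knockout replicates 1 and 4, Wnt5a changed by -1.39 (adjusted p = 0.0349 in the gene fit), and with the Gapdh difference as a covariate by -1.64 (adjusted p = 0.0152). In the fit of all probe sets without those replicates its 3 brighter probe sets were each at an adjusted p of 0.0515.

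**Figure D2:**
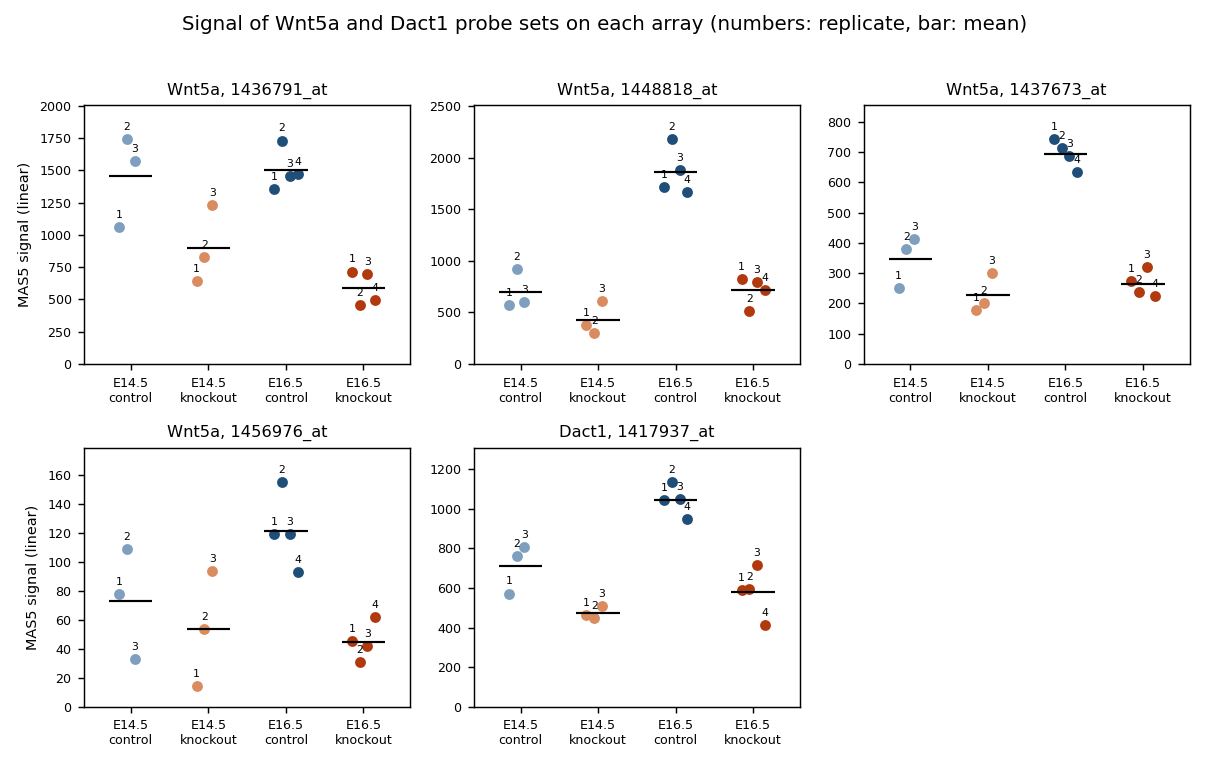
Signal (linear MAS5 scale, axis from 0) of the 4 Wnt5a probe sets and the Dact1 probe set on each array, with replicate numbers beside the points and bars at group means. At E16.5 every knockout point lies below every control point in all 5 panels, while at E14.5 the Wnt5a groups overlap and the Dact1 groups do not.

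Dact1 encodes a Dishevelled-binding protein that tunes both branches inside the cell. Its only probe set read 1042, 1136, 1047 and 950 in E16.5 controls and 591, 594, 714 and 414 in knockouts, with no overlap between the groups. Dact1 fell by 0.86 ± 0.15 on the log2 scale, 1.81-fold (1044 ± 75.7 against 578 ± 124, SD, n = 4 each, limma adjusted p = 0.00977). Knockout replicate 4 was the lowest array, and without knockout replicates 1 and 4 the change was -0.66 ± 0.15 and did not pass (adjusted p = 0.121). With the Gapdh difference as a covariate it was -0.88 ± 0.20 (adjusted p = 0.099).

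Promoter windows of the 250 bases before annotated starts (RefSeq, GRCm38.p6) were available for 32 members, in 42 windows; Wnt5a was not among them. Dact1 is shown as the member with a window that passed, and Sp5, a direct beta-catenin target, for contrast. Capitals mark motif matches, which in Dact1 (chr12:71309634-71309883, plus strand) are GC boxes (GGGCGG) and in Sp5 (chr2:70474673-70474922, plus strand) the TCF/LEF letters CTTTGAT.
Dact1: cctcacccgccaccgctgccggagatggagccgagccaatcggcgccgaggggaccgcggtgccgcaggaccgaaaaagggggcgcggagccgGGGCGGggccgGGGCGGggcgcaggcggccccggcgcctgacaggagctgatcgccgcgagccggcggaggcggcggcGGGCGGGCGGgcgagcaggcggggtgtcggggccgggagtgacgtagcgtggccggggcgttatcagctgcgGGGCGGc
Sp5: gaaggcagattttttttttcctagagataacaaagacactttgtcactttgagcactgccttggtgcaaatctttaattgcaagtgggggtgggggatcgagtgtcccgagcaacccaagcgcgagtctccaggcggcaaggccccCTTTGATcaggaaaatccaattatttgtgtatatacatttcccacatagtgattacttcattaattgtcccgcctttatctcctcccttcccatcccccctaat
Searched on both strands, CTTTGAT occurred in 3 of 42 member windows (Sp5 and the noncanonical ligands Wnt5b and Wnt11), against 3.21% of all 32851 windows. The nuclear receptor half-site AGGTCA occurred in 1 of 42 (Tcf7), against 14% of all windows, and its direct repeat with 1 base between the copies, which contains that half-site, in 0 (0.0335% of all windows). The GC box, with 5 matches in the Dact1 window, occurred in 29 of 42 member windows (24 of 32 members) and 32.7% of all windows. These are matches of letters in short windows and say nothing of binding.

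The remaining ligands did not pass at E16.5. Wnt4, the canonical ligand of early ovarian development, read 1588, 1334, 1503 and 1313 in controls and 1060, 970, 858 and 1383 in knockouts. Knockout replicate 4 lay inside the control range and the other knockout arrays below it. The log2 change was -0.44 ± 0.20 (95% interval -0.85 to -0.024, adjusted p = 0.248), and a second Wnt4 probe set had -0.25 ± 0.22. Without knockout replicates 1 and 4 the change was -0.64 ± 0.23 (adjusted p = 0.393). Wnt5b, the closest relative of Wnt5a, read 956, 605, 684 and 907 in controls and 633, 410, 558 and 672 in knockouts, which overlapped (-0.46 ± 0.19, adjusted p = 0.206; -0.68 ± 0.22 without knockout replicates 1 and 4). That probe set carries the suffix x_at, Affymetrix's mark for probes that may match other transcripts, and the other Wnt5b probe set had -0.14 ± 0.17. Wnt11, the third noncanonical ligand, had 0.30 ± 0.25 (-0.029 ± 0.28 without those replicates) and Wnt6, a ligand of epithelia, 0.33 ± 0.14 (adjusted p = 0.227). The canonical Wnt2b and Wnt9a had -0.24 ± 0.22 and 0.29 ± 0.16.

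Rspo1, the R-spondin that drives ovarian differentiation, read 2311, 1954, 2037 and 2297 in E16.5 controls and 1977, 1908, 1922 and 1992 in knockouts. The knockout arrays lay close together inside and just below the control range, and the change was -0.14 ± 0.12 (95% interval -0.38 to 0.11). Rspo3 had 0.35 ± 0.26. Porcn, the acyltransferase that lipid-modifies WNT ligands, read 93.9, 76.0, 120 and 174 in controls and 121, 134, 110 and 232 in knockouts, overlapping, with a wide interval (log2 change 0.33, -0.45 to 1.10). Wls, which carries WNT ligands to the cell surface, had 0.043 ± 0.13, and -0.15 ± 0.14 without knockout replicates 1 and 4.

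Among the receptors, Ror2, a receptor of Wnt5a, read 642, 643, 598 and 531 in E16.5 controls and 356, 576, 459 and 318 in knockouts. Knockout replicate 2 lay within the control range and replicates 1 and 4 were lowest. The change of -0.51 ± 0.18 did not pass (adjusted p = 0.141). It passed without knockout replicate 2 (-0.67 ± 0.17, adjusted p = 0.0382) and was -0.22 ± 0.18 without replicates 1 and 4. A second, dimmer Ror2 probe set read 196, 274, 283 and 223 against 120, 168, 184 and 108, with no overlap, and had -0.71 ± 0.25 (adjusted p = 0.187). The related Ror1 had -0.23 ± 0.16.

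Fzd3, a Frizzled best known for planar polarity and axon guidance, had 6 probe sets. Its brightest read 1235, 1672, 1474 and 1255 in controls and 960, 1093, 1131 and 887 in knockouts, without overlap (-0.46 ± 0.13, adjusted p = 0.091). A second Fzd3 probe set read 954, 1014, 1060 and 999 in controls and 508, 814, 666 and 578 in knockouts and passed in the fit of all probe sets (-0.66 ± 0.14, adjusted p = 0.0329). That call was kept in 2 of 8 fits that left out an E16.5 array, those without knockout replicate 2 or 3, and without knockout replicates 1 and 4 the change was -0.44 ± 0.14 (adjusted p = 0.407). Over the 6 Fzd3 probe sets the changes ran from -0.67 to 0.042, and their mean passed at -0.39 ± 0.093 (adjusted p = 0.0497). None of the other Frizzled receptors or coreceptors passed: Fzd2 had -0.48 ± 0.25, Fzd7 -0.21 ± 0.13 (-0.051 ± 0.13 without knockout replicates 1 and 4), Fzd4 0.26 ± 0.22, Fzd1 0.23 ± 0.12, Fzd8 0.21 ± 0.17, Fzd5 0.014 ± 0.13, Fzd6 0.0073 ± 0.14, Lrp5 0.13 ± 0.19 and Lrp6 -0.064 ± 0.11. The dimmer Fzd2 probe sets overlapped and had higher means in knockouts, 323 against 278 and 321 against 236. A second Lrp6 probe set read 409, 400, 368 and 381 in controls and 753, 318, 400 and 808 in knockouts.

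Secreted inhibitors bind WNT ligands or their coreceptors outside the cell. Frzb, of the secreted Frizzled-related family, read 108, 75.2, 39.1 and 42.4 in E16.5 controls and 112, 165, 230 and 97.3 in knockouts. Control replicate 1 overlapped the knockout arrays and the other controls lay below them. The log2 change was 1.04 ± 0.28 (95% interval 0.44 to 1.63), which did not pass (adjusted p = 0.0715), and the second Frzb probe set had 1.05 ± 0.33. Without knockout replicates 1 and 4 the brighter had 1.44 ± 0.31 (adjusted p = 0.103). Dkk3, a divergent Dickkopf protein, read 503, 518, 459 and 448 in controls and 651, 653, 641 and 526 in knockouts, the member with all knockout arrays above all controls (0.34 ± 0.17, adjusted p = 0.283). A second, dimmer Dkk3 probe set read 250, 279, 295 and 246 in controls and 468, 284, 338 and 396 in knockouts, which overlapped. Dkk2 and Sfrp2 varied widely within groups, with 0.67 ± 0.50 and 0.66 ± 0.50, and Wif1, which binds WNT ligands, had -0.018 ± 0.26.

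For Sfrp1, a Frizzled-related inhibitor with 5 probe sets, the probe sets did not move together. The brightest read 2002, 2344, 2135 and 2293 in E16.5 controls and 1410, 2146, 1560 and 1093 in knockouts. Knockout replicate 2 lay among the controls and the other knockout arrays below them (-0.53 ± 0.18, adjusted p = 0.135; without knockout replicate 2, -0.70 ± 0.16 and adjusted p = 0.0286; without replicates 1 and 4, -0.26 ± 0.18 and adjusted p = 0.782). An x_at probe set read 146, 150, 113 and 70.1 in controls and 392, 180, 276 and 303 in knockouts, and was higher without overlap (1.16 ± 0.25, adjusted p = 0.035 over all probe sets). It passed in 1 of 8 fits without an E16.5 array, that without knockout replicate 2, with adjusted p of 0.0118 to 0.13 over the 8. Without knockout replicates 1 and 4 together it had 0.86 ± 0.29 (adjusted p = 0.431). The remaining 3 Sfrp1 probe sets had changes of -0.13 to -0.085, so no direction is given for the gene.

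**Figure D3:**
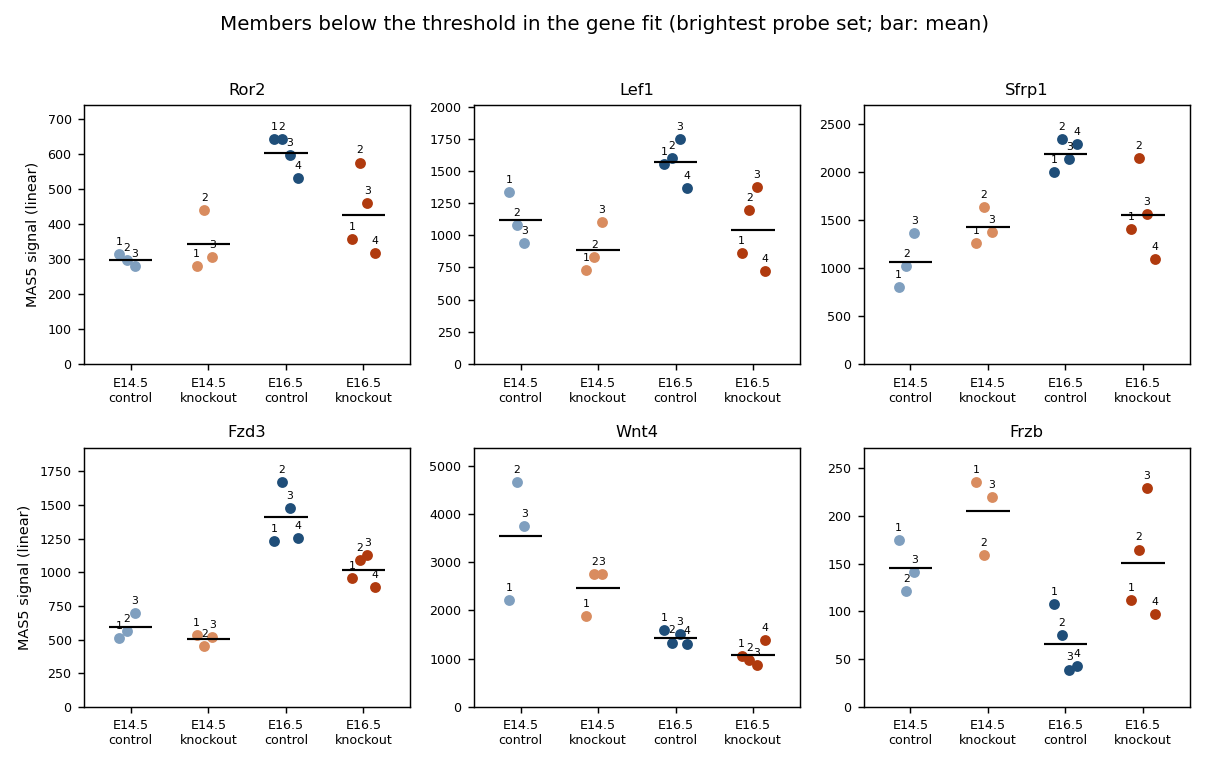
Signal (linear MAS5 scale, axis from 0) of the brightest probe set of Ror2, Lef1, Sfrp1, Fzd3, Wnt4 and Frzb on each array, with replicate numbers and group means. At E16.5 knockout replicates 1 and 4 are the lowest points for Ror2, Lef1, Sfrp1 and Fzd3, and the groups overlap at E16.5 in every panel but that of Fzd3.

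The nuclear arm of the canonical branch gave no call. The brightest probe set of Ctnnb1, beta-catenin itself, read 14175, 13451, 14363 and 14394 in E16.5 controls and 12112, 15060, 14250 and 13708 in knockouts, interleaved. Its change was -0.036 (95% interval -0.21 to 0.13), and 0.056 ± 0.083 without knockout replicates 1 and 4. The dimmest Ctnnb1 probe set read 2038, 2210, 2073 and 2079 in controls and 1499, 1867, 1535 and 1335 in knockouts. It was lower on all knockout arrays and did not pass. The remaining Ctnnb1 probe set had overlapping groups, with means of 4213 in controls and 3870 in knockouts. Lef1, a TCF/LEF factor and also a beta-catenin target, read 1551, 1602, 1747 and 1366 in controls and 860, 1193, 1378 and 723 in knockouts. Knockout replicate 3 reached the control range and replicates 1 and 4 were lowest (-0.63 ± 0.18, adjusted p = 0.0913). Lef1 passed without knockout replicate 3 (-0.77 ± 0.18, adjusted p = 0.0388) and was -0.28 ± 0.17 without replicates 1 and 4. Tcf7l2 read 2303, 2171, 2011 and 2106 against 1723, 1639, 1780 and 1567 without overlap (-0.35 ± 0.13, adjusted p = 0.164), and its 3 other probe sets had -0.049 to 0.13. Tcf7l1, mainly a repressor, had -0.17 ± 0.13.

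Feedback targets are the usual readout of canonical activity. At E16.5 0 of 7 passed, with a median change of 0.16; with 1.42% of all genes called, a count of 0 among 7 does not set them apart from other genes. Axin2 read 1441, 1356, 1261 and 1393 in controls and 1762, 1230, 1284 and 1921 in knockouts. Knockout replicates 1 and 4 were above the control range, replicate 2 just below it and replicate 3 within it (0.16 ± 0.15, 95% interval -0.16 to 0.48), and without replicates 1 and 4 the value was -0.11 ± 0.15. A second, dimmer Axin2 probe set read 767, 758, 759 and 630 in controls and 485, 657, 834 and 605 in knockouts. There knockout replicates 1 and 4 were the lowest arrays, and it did not pass. Nkd1, which blocks Dishevelled, read 361, 588, 513 and 624 in controls and 582, 485, 598 and 525 in knockouts (0.092, 95% interval -0.26 to 0.44). Sp5 and Rnf43 shared the pattern of the brightest Axin2 probe set, with knockout replicates 1 and 4 highest (Sp5 737 and 943, Rnf43 344 and 401). Their changes were 0.21 ± 0.18 and 0.42 ± 0.20. Without those arrays Sp5 had -0.06 ± 0.19 and Rnf43 0.09 ± 0.21. The brightest Nkd2 probe set read 643, 605, 624 and 654 in controls and 515, 596, 513 and 506 in knockouts, all lower, at -0.24 ± 0.14 (adjusted p = 0.355). Its other probe sets above the filter overlapped and had higher means in knockouts, 266 against 221 and 279 against 267. Notum, a deacylase that inactivates WNT, had 0.35 ± 0.23 and the ubiquitin ligase Znrf3 -0.012 ± 0.13.

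**Figure D4:**
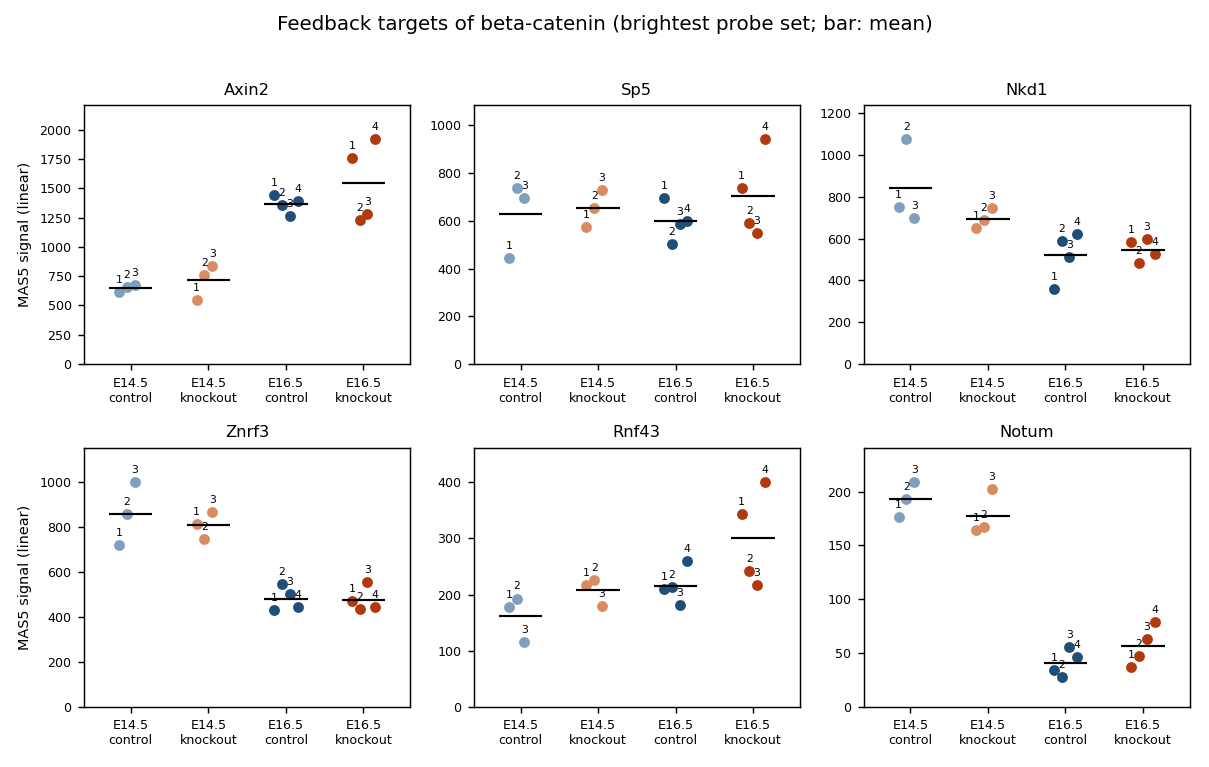
Signal (linear MAS5 scale, axis from 0) of the brightest probe set of 6 feedback targets of beta-catenin on each array, with replicate numbers and group means. Control and knockout points overlap at both stages in these 6 panels (Nkd2, the target not drawn, did not overlap at E16.5), and knockout replicates 1 and 4 at E16.5 are the highest points for Axin2, Sp5 and Rnf43.

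The 4 members below the filter had low and scattered signals. Over all arrays Wnt2 read 4.30 to 82.2 and Sfrp4 6.34 to 163 on their brightest probe sets. Wnt7a, a ligand of epithelia, read 66.3, 88.5 and 151 in E14.5 controls and 2.39 to 18.2 in E16.5 controls. Dkk1, which blocks Lrp5 and Lrp6, read 13.0 to 41.1 in E16.5 controls and 18.6 to 97.2 in knockouts, overlapping.

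At E14.5 no WNT member passed: 0 of 41 were called in either direction by limma, where 0.0403% of all genes tested were, and 4 had an unadjusted p under 0.05 (8.55% of all genes). The same 2 genes as at E16.5 had the lowest values. Wnt5a read 1059, 1741 and 1574 in controls and 643, 825 and 1227 in knockouts. Knockout replicate 3 lay above the lowest control, and the change was -0.71 ± 0.23 (95% interval -1.19 to -0.22, adjusted p = 0.397). Without that array Wnt5a passed, at -0.95 ± 0.22 (adjusted p = 0.0439). That fit called 179 of all genes tested, against 5 with every array kept. Dact1 read 572, 760 and 807 in controls and 462, 449 and 507 in knockouts with no overlap (-0.56 ± 0.18, adjusted p = 0.36).

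Other members at E14.5 gave smaller or more scattered values. Fzd1, a Frizzled receptor counted with both branches, read 1179, 1233 and 1205 in controls and 1401, 1952 and 1378 in knockouts, all higher (0.36 ± 0.14, adjusted p = 0.455), and Lrp5 was lower on all knockout arrays (-0.31 ± 0.21), at mean signals of 56.1 and 41.9 that both lay below the filter signal of 62.0. Counting Dact1, 3 of 41 members had groups that did not overlap, 1 higher and 2 lower, against 12.7% of all genes (7.84% higher, 4.9% lower). Wnt4 read 2214, 4669 and 3755 in controls and 1892, 2763 and 2756 in knockouts, overlapping (-0.47 ± 0.23, adjusted p = 0.59). Rspo1 read 2229, 2141 and 2123 against 1442, 2244 and 1774 (-0.27 ± 0.13), with knockout replicate 2 at the level of the controls. Sfrp1 read 803, 1026 and 1368 against 1259, 1640 and 1375, overlapping (0.44 ± 0.21). Sfrp2 had the largest change, 1.12 ± 0.58, with knockout replicate 2 at 6261 and the other knockout arrays at 1024 and 1237 (controls 608 to 1275).

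The canonical readouts at E14.5 also did not pass. Axin2 read 616, 656 and 677 in controls and 548, 764 and 840 in knockouts (0.12 ± 0.18), Lef1 1333, 1076 and 942 against 729, 828 and 1101 (-0.34 ± 0.21), and Nkd1 753, 1076 and 699 against 651, 688 and 746 (-0.25 ± 0.19). In all 3 the groups overlapped. Ctnnb1 read 23753, 21698 and 19808 against 21237, 20932 and 20121 (-0.064 ± 0.093), and Ror2 314, 298 and 280 against 281, 441 and 306 (0.17 ± 0.20). Porcn ranged from 75.3 to 167 in controls and from 44.4 to 195 in knockouts (-0.39 ± 0.43). With 3 arrays a group, standard errors of this size leave changes below the threshold that would pass at a smaller error.

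Whether the knockout effect differed between the stages was tested directly. No member passed (0 of 41 by limma, 0 of 12406 genes), and 3 had an unadjusted p under 0.05 (8.91% of all genes). The smallest p belonged to Sfrp1, whose brightest probe set moved up at E14.5 and down at E16.5 relative to controls (difference -0.97 ± 0.27, adjusted p = 0.398). Tcf7l2 had -0.59 ± 0.20 (adjusted p = 0.51), Ror2 -0.68 ± 0.27 (adjusted p = 0.529) and Wnt5a -0.64 ± 0.30 (adjusted p = 0.561, 95% interval -1.28 to 0.0036). The larger drop of Wnt5a at E16.5 is therefore not shown to differ from that at E14.5, and for Dact1 the difference was -0.29 ± 0.23 (95% interval -0.78 to 0.20).

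Wider pathway lists were set beside the members. Of 46 further canonical genes (other ligands and receptors, Dishevelled, Apc, Axin and other parts of the beta-catenin destruction complex), 27 were tested and 0 passed at either stage, with 18 below the filter. Of 21 planar polarity and other noncanonical genes, 18 were tested and 0 passed; the cadherin Celsr2 had 0.73 ± 0.19 at E16.5 (adjusted p = 0.0621). All 5 genes listed as beta-catenin dependent in the fetal ovary, Fst, Bmp2, Irx3, Irx5 and Gng13, and 7 of 8 general beta-catenin targets were tested, and 0 of each passed at either stage. At E16.5 an unadjusted p under 0.05 was found for 4 of 27, 4 of 18, 1 of 5 and 4 of 7 of these genes, in the order given, against 18.3% of all genes tested (1.42% passed).

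Some markers of ovarian and neighbouring cell types were called beside these results, where 0.967% of all genes were called higher and 0.451% lower. At E16.5 Pdgfra, a receptor of mesenchymal cells, fell by 1.25 ± 0.19 (adjusted p = 0.00457), 1 of 9 interstitial markers tested. Of the 9, 3 had positive and 6 negative changes (median -0.17, up to 0.39), and the summed signal of that list was 42681 to 47444 in controls and 36312 to 45462 in knockouts. The deleted gene Nr2f2 (-0.79) is itself among the negative changes and in that sum, so neither is independent of the deletion. Of 7 surface epithelium markers Krt19 (1.24 ± 0.25) and Upk1b (1.01 ± 0.24) rose, and the summed signal was 9874 to 11039 in controls and 12508 to 17148 in knockouts. Of 3 adrenal cortex markers tested Hao2 (1.49 ± 0.27) and Mc2r (1.46 ± 0.23) rose, with sums of 315 to 423 and 780 to 1109, while Cyp11b1 and Cyp21a1 were below the filter. Of 6 endothelial markers Plvap rose (1.18 ± 0.21) and Tek fell (-0.68 ± 0.15), with overlapping sums of 3580 to 4414 in controls and 4262 to 5405 in knockouts. Of 6 macrophage markers C1qb rose (0.82 ± 0.20), with sums of 2410 to 2704 and 2803 to 5807. The smooth muscle list gave Des higher (1.17 ± 0.25), with 3 of 4 changes positive, 1 negative and Cnn1 below the filter. Pre-granulosa markers gave 0 of 8 (sums 31118 to 34137 and 24250 to 30262; Foxl2 -0.83 ± 0.20, adjusted p = 0.0504), germ cell markers 0 of 7 and mesonephric markers 0 of 3, with Lhx1 and Ret below the filter. Fst, Bmp2, Irx3 and Gng13 are both pre-granulosa markers and genes listed above as beta-catenin dependent, so those counts are not separate. At E14.5 none of these lists had a member past the threshold, and the sums did not overlap for adrenal cortex (385 to 683 in controls and 736 to 998 in knockouts), surface epithelium (9136 to 9610 and 10054 to 14199) and smooth muscle (3075 to 3637 and 4057 to 6653). Their part in the fall of Wnt5a and Dact1 was not tested.

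Between the stages most members differed. In controls 28 of 41 members passed by limma, 18 higher and 10 lower at E16.5, where 64.4% of all genes were called (28.5% higher, 35.9% lower). Stage cannot be told apart from the processing of the arrays: the Gapdh difference was -0.42 to -0.06 on E14.5 arrays and 0.94 to 1.82 on E16.5 arrays, and the bioB control 1519 to 1882 and 4105 to 17637. Cell type markers differed between the stages too. The summed germ cell marker signal was 60659 to 71573 in E14.5 controls and 13551 to 17946 in E16.5 controls. A change in cell make-up and in RNA per cell cannot be told apart here. The split also depended on scaling, being 16 higher and 11 lower after quantile normalization and 15 and 16 after median centring, which moved the median of all genes from -0.087 to -0.21 and -0.43. In knockouts 22 members passed, 13 higher and 9 lower (60.8% of all genes, 27% higher and 33.8% lower), against 12 and 13, and 12 and 16, under those scalings. Of the 28 members called in controls, 21 had the same call in knockouts.

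Among members that passed, the largest rises in controls were those of Wnt2b (2.92 ± 0.24 on the log2 scale), Lrp5 (2.41 ± 0.20), Dkk3 (1.96 ± 0.18), Nkd2 (1.85 ± 0.15), Tcf7l2 (1.70 ± 0.14), Lrp6 (1.52 ± 0.12), Wnt5b (1.30 ± 0.20) and Fzd3 (1.23 ± 0.14). Wnt2b read 72.6, 80.5 and 28.7 at E14.5 and 677, 561, 488 and 441 at E16.5, and Lrp5, the canonical coreceptor, 49.5 to 67.8 and 306 to 462. Both were widely separated between the stages, but their E14.5 control means of 60.6 and 56.1 lay below the filter signal of 62.0, so the size of these rises is uncertain. Among members that passed, the largest falls were those of Notum (-1.91 ± 0.24), Wnt4 (-1.23 ± 0.21), Wnt6 (-1.10 ± 0.15), Frzb (-1.04 ± 0.31), Ror1 (-1.01 ± 0.18), Znrf3 (-0.81 ± 0.14), Rspo3 (-0.80 ± 0.28) and Nkd1 (-0.68 ± 0.18). Notum read 176, 193 and 209 at E14.5 and 34.0, 27.3, 55.1 and 45.8 at E16.5, below the filter signal, so the size of its fall is uncertain too. For Nkd2, Lrp6, Wnt5b, Wnt4 and Frzb the brightest probe set alone was called, among 2 or 3 tested. In controls, means at E14.5 and E16.5 on the other tested probe sets were 322 and 268 for Wnt5b and 1855 and 1726 for Wnt4. They were 273 and 389 for Lrp6, 61.7 and 52.1 for Frzb, and 288 and 267, then 163 and 221, for Nkd2. With the mean of all probe sets of a gene in place of the brightest, Ror1, Znrf3 and Nkd1 turned to 0.76, 0.85 and 0.44, and Wnt6 (-0.085), Rspo3 (-0.36) and Frzb (-0.59) no longer passed (adjusted p of 0.575, 0.135 and 0.0792). Of the anchors of the ovarian pathway, Rspo1 (-0.013 ± 0.13) and the brightest Wnt5a probe set (0.068 ± 0.21) did not pass, whereas Axin2 rose (1.05 ± 0.16). Of the other Wnt5a probe sets 2 rose (1.42 ± 0.22 and 0.99 ± 0.20), and the dimmest had 0.71 ± 0.38.

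Many of these stage changes depended on which probe set was read. Of 24 members with 2 or more tested probe sets, 9 (37.5%) had probe sets called in opposite directions between the stages in controls: Sfrp1, Nkd1, Fzd2, Wnt6, Fzd3, Ctnnb1, Fzd1, Tcf7l2 and Znrf3. Over all genes the share was 31.9% of 6143, in a fit that called 67% of all probe sets. In knockouts it was 33.3% of the members and 30.9% of all genes, with 64.2% of probe sets called. In the knockout comparison at E16.5 it was 0 of 24 members and 0 of 6143 genes, where 3 members and 114 genes had any call.

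**Figure D5:**
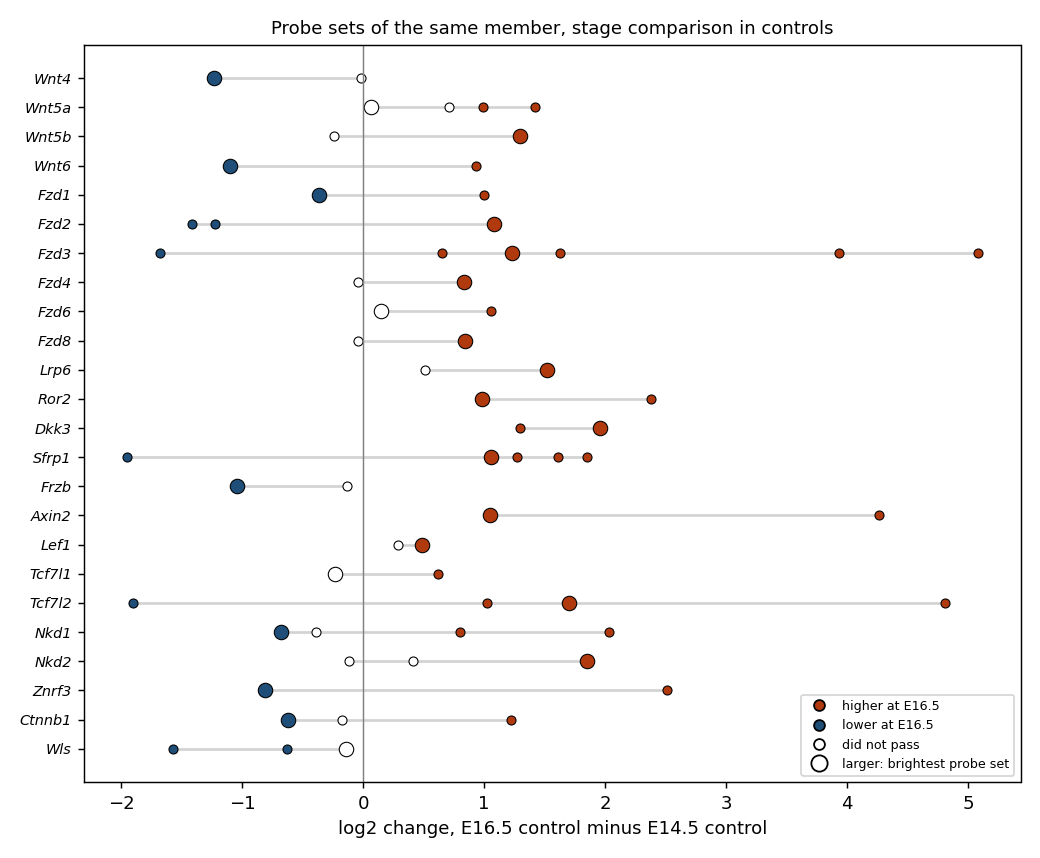
Log2 change, E16.5 minus E14.5 in controls, of each tested probe set of the 24 members with 2 or more. Filled points passed (red higher, blue lower), open points did not, and larger points are the brightest probe sets. In 9 members red and blue points share a row, as in Fzd3, Tcf7l2 and Sfrp1.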

How the data were processed

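Per the submitters' processing notes, the deposited values are MAS5 intensity values from Affymetrix Expression Console; their versions are not stated. From RNA isolated by the PicoPure kit, 100 ng was labelled with the Affymetrix 3' IVT Express kit (16 hours of in vitro transcription), per the labels' protocols. The trimmed mean of every array (2% off each end) was 500, so any global difference in RNA amount had been scaled out; the number of arrays limits the precision. Of 45037 probe sets other than controls, 34945 had 1 gene symbol, 932 several and 9160 none listed in the platform annotation; all 99 member probe sets were found by gene ID in RefSeq (GRCm38.p6) with the same symbol.

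Intensities were taken as log2(signal + 16), which understates changes of dim genes. Of the probe sets of a gene, that of highest mean log2 value stood for it. The 12406 genes whose mean exceeded the 40th percentile over probe sets (a signal of 62.0) were tested. The 4 groups were fitted to all 14 arrays in limma 3.58.1, using lmFit and a trended eBayes, under R 4.3.3; tests were two-sided with Benjamini-Hochberg adjustment over all genes, or over 27022 probe sets, at 0.05. Values of every array are given for members past the threshold in either knockout comparison, members without overlap at E16.5 and 10 pathway anchors; for the stages 8 members in each direction are named, for their difference the 4 smallest p. Array values of other members, Celsr2 and Foxl2 were added after their values were seen. Steps were tested on simulated data. Figures used matplotlib 3.10.9 in Python 3.11.15. Members, lists and alternatives were chosen with earlier results of these data known, and those of the probe set fit after seeing its calls.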

Additional observations from a re-analysis of the deposited data

Results flagged for a closer look

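Among the 41 tested members, 82 groups of 4 arrays at E16.5 were searched for an array far from the other 3 (a gap above Dixon's 95% critical value), and 5 were found; chance gives about 1 in 20 groups. Control replicate 4 was low for Fzd5, at a signal of 554 against 631 to 637 on the other controls. The same array was low for Wls, at 1143 against 1280 to 1300. Knockout replicate 4 was low for Dkk3, at 526 against 641 to 653, and it also stood apart in the bioB control. Knockout replicate 2 was high for Nkd2, at 596 against 506 to 515. Knockout replicate 1 was high for Wnt9a, at 749 against 500 to 529. None of the 5 members passed in the knockout comparison at E16.5.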

How the results depend on the processing

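Settings for the pseudocount, scaling, filter, probe set choice, spread model, replicate block, Gapdh covariate and left-out arrays were tried. At E14.5 no member passed except with 1 array left out (0 to 1 members). That was Wnt5a without knockout replicate 3, where 179 of all genes tested were called. At E16.5 the 2 calls became 4 with every probe set tested on its own (Dact1, Fzd3, Sfrp1, Wnt5a), 3 with the mean of all probe sets (adding Fzd3), and 1, Wnt5a, both with the Gapdh covariate and without knockout replicates 1 and 4 together; leaving out 1 array gave 2 to 4. Wnt5a and Dact1 passed each time 1 array was left out (adjusted p of 0.00698 to 0.0175 and 0.00722 to 0.0379). The 6 member probe sets called at E16.5 became 3 with the Gapdh covariate and 0 without knockout replicates 1 and 4, with 4 to 8 when 1 array was left out. No member passed for the difference between stages in any fit (0 to 0 with 1 array left out). Same-numbered arrays did not all deviate together (correlations between -0.05 and 0.16 for E14.5, between 0 and 0.43 for E16.5), nor did every array correlate best with its own number, so the numbers were not taken as pairs; with the replicate block 0, 2, 0, 28 and 24 members passed at E14.5, E16.5, for their difference and for the stages in controls and knockouts, and 4 probe sets (without those of Fzd3, adjusted p of 0.0513, and Sfrp1, 0.0551). Stage calls ranged over 25 to 27 in controls and 21 to 24 in knockouts with 1 array left out. With the mean of all probe sets, stage changes turned sign in controls for Fzd1 (0.32), Fzd2 (-0.51), Fzd5 (-0.053), Ror1 (0.76), Nkd1 (0.44), Znrf3 (0.85) and Ctnnb1 (0.14), and in knockouts for Wnt5a (0.092), Wnt6 (0.22), Fzd1 (0.34), Ror1 (0.62), Znrf3 (0.56) and Ctnnb1 (0.042). Quantile normalization turned Ctnnb1 to 0.14 and 0.13. The cause was not tested.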
